A study of Mus musculus with 4 samples.

Results

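The proteasome genes of mouse thigh skeletal muscle were described at 28 and 18 months of age. A gene entered when its symbol began with Psma, Psmb, Psmc, Psmd, Psme or Psmg followed by a digit, which took 45 of 40137 gene units and 810 of 374286 exonic bins, the pieces of exon between annotated boundaries in which reads were counted. The libraries, all from wild-type males of the inbred strain C57BL/6J, numbered 3 at 28 months and 1 at 18 months. The sequencing served a study of alternative splicing with age. A further 4 proteasome genes, Psmb5, Psmd1, Psmg3 and Psme2b, shared their unit with overlapping genes and are not among the 45. Psmc3ip met the naming rule but encodes a recombination cofactor and no proteasome subunit.

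The proteasome degrades proteins tagged with ubiquitin. Its core particle is a barrel of alpha rings, which gate the entrance, and beta rings, which hold the proteolytic sites. The regulatory particle caps the barrel, recognises ubiquitin and unfolds the substrate with a ring of ATPases. Under interferon gamma, the catalytic subunits Psmb6, Psmb7 and Psmb5 can be replaced by Psmb9, Psmb10 and Psmb8 to form the immunoproteasome, which favours peptides for presentation on MHC class I. In skeletal muscle the ubiquitin-proteasome pathway is known for the turnover of myofibrillar proteins and for its part in atrophy.

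Libraries held 67279205 to 76163175 counts at 28 months and 65780464 at 18 months. The extraction text in the labels describes epidermal cells, but all 8 skeletal muscle fibre markers were counted in every library, and of the 6 keratinocyte markers, Krt5 and Dsg3 were at 0 in all 4. Muscle fibre markers summed to 102881 to 205128 CPM, counts scaled to the library's size, at 28 months and 116357 CPM at 18 months. Keratinocyte markers reached 1.01 to 1.12 CPM at 28 months, against 0.891 CPM at 18 months. The second 28-month library stood apart, with muscle fibre markers at 102881 CPM against 196730 and 205128 CPM in 28-month replicates 1 and 3. The third stood apart in red cell markers, at 3785 CPM against 378 and 145 CPM in 28-month replicates 1 and 2 and 183 CPM at 18 months. Schwann cell markers had 99.3, 33.8 and 79.4 CPM in the 28-month libraries against 199 CPM at 18 months, where all 3 genes were highest, and the part of these cells in the results was not tested. Results that rest on the second library are given with and without it. The labels do not tie the libraries to separate animals, so p-values measured the spread between these samples, and the single library at 18 months was given the spread of those at 28 months. In bulk tissue, fewer cells of a type and less RNA per cell cannot be told apart.

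Most proteasome genes had an estimate above 0 at 28 months, but none passed the gene test. Summed over the 45 genes, 28-month replicates 1 and 3 had 8065 and 7164 CPM, above the 5284 CPM at 18 months. Replicate 2, at 4850 CPM, lay below it. Of the 45 genes, 44 had a mean count of at least 10 and were tested, and 36 of these had an estimate above 0, against 54.4% of all 15376 units tested. The median log2 difference, 28 months over 18 months, was 0.38 over the 44 genes and 0.056 over all units. The edgeR quasi-likelihood test called 0 of 44 at a Benjamini-Hochberg adjusted p under 0.05, as it called 0% of all units, and 0 members were at an unadjusted p under 0.05, against 4.90% of all units. The DESeq2 Wald test also called 0 members, with 1 (Psma2) at an unadjusted p under 0.05 and 31 units called in all. The direction of the median was the same under each scaling tried.

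The order of libraries differed from gene to gene. In 17 of 44 genes the 18-month CPM lay below all 28-month libraries, against 25.4% of all units, in 4 it lay above them, against 26.4%, and in 23 the groups overlapped. The second 28-month library was the lowest of the 28-month libraries in 36 of 44 genes, against 43.0% of all units. Without that library, 18 of 44 genes passed the same edgeR test, all higher at 28 months, against 7.39% of all units called higher, and the median over the 44 genes was 0.58 (0.025 over all units). Without replicate 1 or replicate 3, 0 members passed, where only 2 and 1 of all 15376 units passed. Summed over the 29 subunits of the core and regulatory particles, the level was 7262, 4141 and 6414 CPM in 28-month replicates 1, 2 and 3, against 4477 CPM at 18 months. The muscle fibre marker sum was likewise low in 28-month replicate 2 and the 18-month library and high in the other two; its part in the result was not tested.

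**Figure D1:**
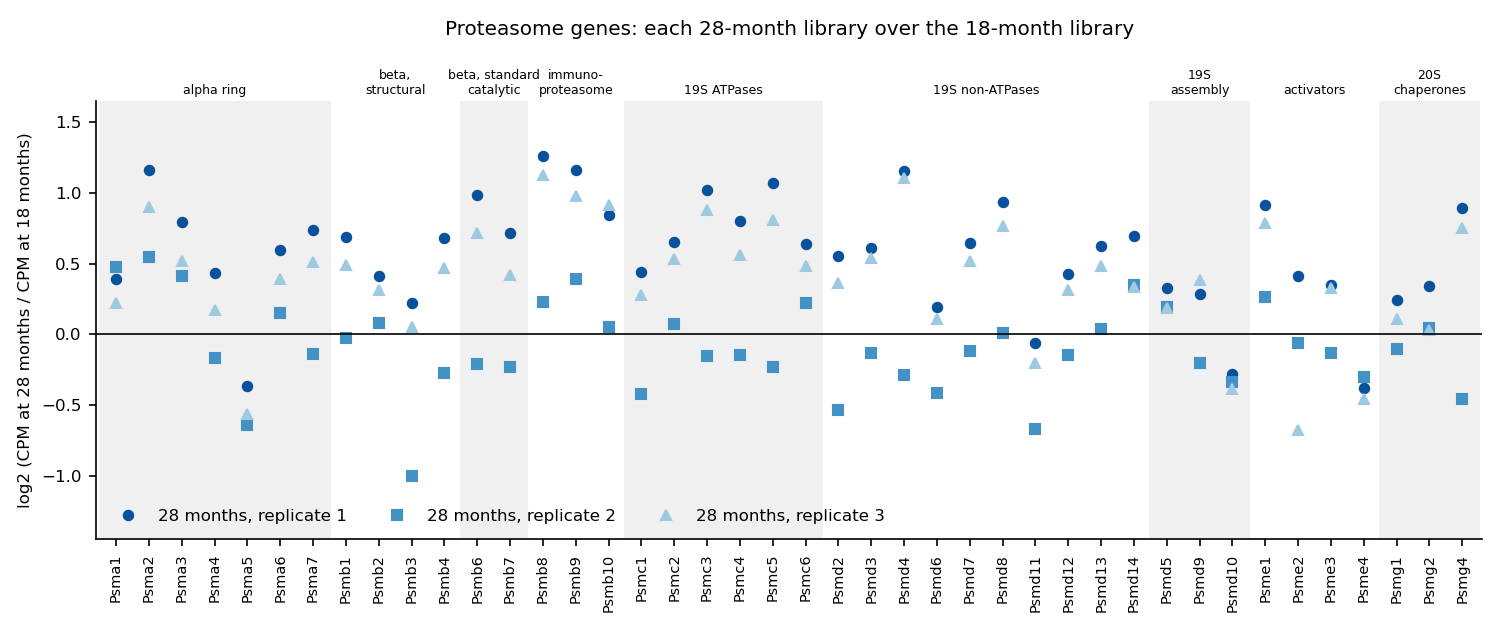
Log2 ratio of each 28-month library over the 18-month library (y axis, CPM after TMM scaling) for 42 proteasome genes grouped by role (x axis), with 1 symbol per 28-month replicate. Replicate 2 (squares) lies lowest in most core and regulatory particle genes, and all 3 replicates lie above 0 for Psmb8, Psmb9 and Psmb10.

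The alpha ring showed the general pattern, with 6 of 7 estimates above 0 and a median of 0.39. Psma2 had 176, 115 and 147 CPM in 28-month replicates 1, 2 and 3, against 78.6 CPM at 18 months. Every 28-month library was higher, and the log2 difference was 0.89 ± 0.37 (SE; edgeR adjusted p = 0.859, unadjusted p = 0.0572). Psma2 passed without replicate 2 (1.06, edgeR adjusted p = 0.0194). Psma6 had 323, 237 and 280 CPM in 28-month replicates 1, 2 and 3, against 213 CPM at 18 months. Psma1 had 153, 162 and 136 CPM in the same 28-month order, against 116 CPM at 18 months. Both genes had the 18-month library below all 28-month libraries, with log2 differences of 0.39 ± 0.34 and 0.37 ± 0.29 that did not pass (edgeR adjusted p = 0.878 and 0.869). Psma5 had an estimate below 0, with 8.72, 7.20 and 7.60 CPM at 28 months against 11.3 CPM at 18 months (log2 difference -0.52 ± 0.29, edgeR adjusted p = 0.859). Its groups did not overlap, and most counts of the gene and its near-identical pseudogenes fell in the pseudogenes.

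Among the catalytic subunits, the immunoproteasome genes had the larger estimates. Psmb8, the chymotrypsin-like subunit of the immunoproteasome (GRCm38 chromosome 17, 34197721 to 34201454), had 32.3, 15.8 and 29.4 CPM in 28-month replicates 1, 2 and 3, against 13.5 CPM at 18 months. Psmb9, which takes the place of Psmb6 (chromosome 17, 34181987 to 34187764), had 10.8, 6.33 and 9.53 CPM at 28 months against 4.82 CPM at 18 months. Psmb10, which takes the place of Psmb7 (chromosome 8, 105935735 to 105938444), had 17.6, 10.2 and 18.5 CPM at 28 months against 9.80 CPM at 18 months. In all 3 genes the 18-month library was the lowest of the 4, with 28-month replicate 2 next to it. Log2 differences were 0.94 ± 0.48 for Psmb8, 0.88 ± 0.42 for Psmb9 and 0.65 ± 0.43 for Psmb10, and none passed (edgeR adjusted p = 0.859 each). Without 28-month replicate 2 all 3 passed, as did 7.39% of all units in the same direction, at 1.22, 1.10 and 0.90 (edgeR adjusted p = 0.0175, 0.0297 and 0.0328).

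Of the standard catalytic genes, Psmb6 and Psmb7 overlapped between ages, and the unit of Psmb5 was highest at 18 months. Psmb6, the caspase-like subunit (chromosome 11, 70525367 to 70527858), had 334, 146 and 277 CPM in 28-month replicates 1, 2 and 3, against 169 CPM at 18 months. Psmb7, the trypsin-like subunit (chromosome 2, 38588036 to 38644087), had 468, 244 and 382 CPM at 28 months against 286 CPM at 18 months. In both, 28-month replicate 2 lay below the 18-month library and the other 28-month libraries above it, with log2 differences of 0.58 ± 0.54 and 0.35 ± 0.46 (edgeR adjusted p = 0.888 and 0.910). Psmb6 passed without replicate 2 (0.88, edgeR adjusted p = 0.0277), and Psmb7 did not (0.59, edgeR adjusted p = 0.0657). The chymotrypsin-like subunit Psmb5 could be read only in a unit joined with Mir686, which had 54.1, 24.2 and 47.3 CPM at 28 months against 55.9 CPM at 18 months (-0.42 ± 0.48, edgeR adjusted p = 0.898). Its 18-month level lay above every 28-month level, though close to replicate 1.

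Shares within a library do not depend on the scaling between libraries. Psmb8, Psmb9 and Psmb10 made up 6.62% of all catalytic subunit counts in 28-month replicate 1 (exact Clopper-Pearson 95% interval 6.43 to 6.82), 7.23% in replicate 2 (6.99 to 7.48) and 7.52% in replicate 3 (7.28 to 7.77). At 18 months the share was 5.22% (4.99 to 5.46). These intervals cover counting error only, and bins count some fragments more than once. The 18-month share lay below all 28-month shares, which averaged 7.12 ± 0.46% (SD, n = 3), a difference of 1.90 percentage points. The exact two-sided permutation test over the 4 libraries gave p = 0.25, the smallest p that 3 libraries against 1 allow. The difference was 1.85 points without replicate 2, 1.74 points without the joined Psmb5 unit, and 1.27 points when counts were taken per kilobase of transcript.

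By pair, the separation was widest for Psmb8 and Psmb5. Psmb8 made up 37.4, 39.4 and 38.3% of the counts of Psmb8 and the Psmb5 unit in 28-month replicates 1, 2 and 3, against 19.4% at 18 months (18.3 to 20.6). The exact two-sided permutation p was 0.25, again the smallest possible. The Psmb5 unit averaged 41.9 CPM at 28 months, against 252 CPM for Psmb6 and 364 CPM for Psmb7. Psmb5 also has a pseudogene at 98.9% identity, for which no counts were found. Whether reads of Psmb5 were lost was not tested, so the size of this share is uncertain. Psmb9 made up 3.14, 4.15 and 3.32% of the counts of Psmb9 and Psmb6 at 28 months, against 2.78% at 18 months. Psmb10 made up 3.62, 4.01 and 4.62% of the counts of Psmb10 and Psmb7 at 28 months, against 3.32% at 18 months. In the pairs of Psmb9 and Psmb10 the 18-month share was also the lowest, by less than in the first pair, and the exact two-sided permutation p of the difference in means was 0.5 in each. Macrophage and dendritic cell markers, cells that carry the immunoproteasome, had a summed level of 365, 768 and 526 CPM in 28-month replicates 1, 2 and 3, against 315 CPM at 18 months. All 10 had estimates above 0, against 54.4% of all units, and 3 were at an unadjusted edgeR p under 0.05, against 4.90%. None passed the edgeR test, and none of the 10 was at 0 in any library. For lymphocyte markers the sum was 9.60, 23.3 and 15.3 CPM at 28 months, against 13.7 CPM at 18 months, with 4 of 8 estimates above 0. The macrophage sum was highest in 28-month replicate 2, where Cd74 and H2-Aa had 284 and 159 CPM. Adgre1, Csf1r and H2-Ab1 were also highest there, while Cd68, C1qa, C1qb, Tyrobp and Lyz2 were highest in replicate 3. Among the 28-month libraries, the CPM of each immunoproteasome gene was lowest in replicate 2, and their share of catalytic counts was lowest in replicate 1. The part of these cells in the result was not tested.

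**Figure D2:**
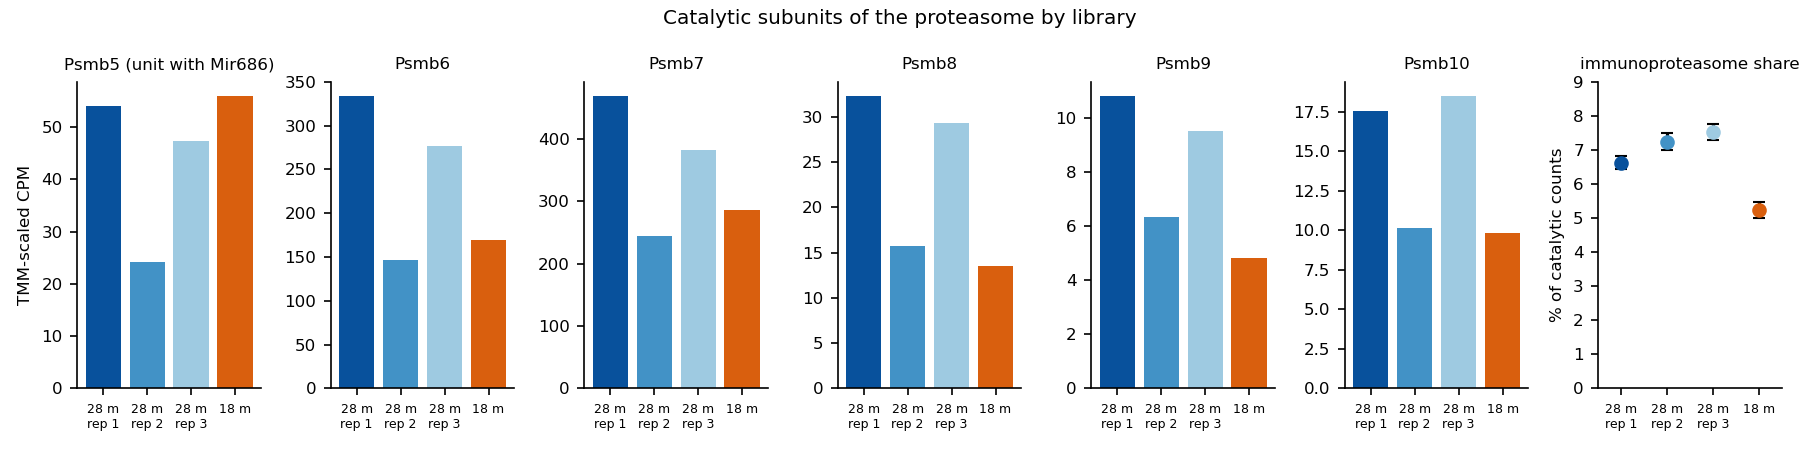
Level of each catalytic subunit (bars, TMM-scaled CPM, 1 bar per library, each panel with its own scale) and the share of Psmb8, Psmb9 and Psmb10 among all catalytic counts (points, percent, with exact 95% intervals). The share is 6.62 to 7.52% in the 28-month libraries and 5.22% in the 18-month library, while Psmb6 and Psmb7 overlap between ages.

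The structural beta subunits and the regulatory particle overlapped between ages in most genes. Structural beta subunits had 3 of 4 estimates above 0 (median 0.31), and the exception, Psmb3, had -0.15 ± 0.51. The ATPases that unfold substrates had 6 of 6 above 0 (median 0.46), and 5 of 6 passed without 28-month replicate 2, all higher at 28 months, against 7.39% of all units. Psmc3 had 632, 280 and 573 CPM in 28-month replicates 1, 2 and 3, against 311 CPM at 18 months. Psmc6 had 270, 202 and 243 CPM at 28 months against 173 CPM at 18 months. For Psmc6 all 28-month libraries were higher, while for Psmc3 replicate 2 lay below 18 months (log2 differences 0.46 ± 0.33 and 0.67 ± 0.56, edgeR adjusted p = 0.861 and 0.877).

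Non-ATPase subunits of the regulatory particle had 8 of 10 estimates above 0 (median 0.38), and 5 of 10 passed without 28-month replicate 2, all higher at 28 months, against 7.39% of all units. Psmd14, which removes ubiquitin chains from the substrate, had 172, 136 and 134 CPM in 28-month replicates 1, 2 and 3, against 106 CPM at 18 months. Psmd8 had 502, 263 and 445 CPM at 28 months against 262 CPM at 18 months. Both had the 18-month library lowest, though for Psmd8 replicate 2 lay next to it (log2 differences 0.47 ± 0.32 and 0.62 ± 0.48, edgeR adjusted p = 0.859 and 0.868). Psmd4, a ubiquitin receptor singled out after its values were seen, had a wide gap among 28-month libraries, with 450, 166 and 436 CPM against 202 CPM at 18 months. The joined unit of the scaffold subunit Psmd1 had 387, 276 and 366 CPM at 28 months against 318 CPM at 18 months, and its groups overlapped. Psmd5, Psmd9 and Psmd10, which help assemble the regulatory particle, had 2 of 3 estimates above 0. Psmd10, also known as gankyrin, had 12.4, 12.0 and 11.5 CPM at 28 months against 15.1 CPM at 18 months, below it in all 28-month libraries (-0.34 ± 0.25, edgeR adjusted p = 0.868).

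Activators that bind the core particle in place of the regulatory particle did not move together. Psme1, which forms an interferon-inducible cap with Psme2, had 98.1, 62.5 and 89.8 CPM in 28-month replicates 1, 2 and 3, against 52.1 CPM at 18 months (0.68 ± 0.37, edgeR adjusted p = 0.859), and passed without replicate 2 (0.87, edgeR adjusted p = 0.0231). Its partner Psme2 had 15.4, 11.0 and 7.22 CPM at 28 months against 11.5 CPM at 18 months. The groups were apart for Psme1 and overlapped for Psme2, whose estimate (-0.041 ± 0.47) was 0.59 when its most abundant bin stood for the gene. Psme3, the nuclear activator, had 99.6, 71.0 and 97.7 CPM at 28 months against 78.0 CPM at 18 months (0.20 ± 0.33). Its estimate was -0.16 from the most abundant bin. Psme4, a large activator linked to acetylated histones, had 416, 438 and 395 CPM at 28 months against 541 CPM at 18 months, lower in all 28-month libraries and not passing (-0.38 ± 0.31, edgeR adjusted p = 0.872).

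No assembly chaperone of the core particle passed, with all libraries or without 28-month replicate 2. Psmg1 had 15.4, 12.0 and 14.0 CPM in 28-month replicates 1, 2 and 3, against 13.0 CPM at 18 months, and its dimer partner Psmg2 had 27.0, 22.0 and 21.8 CPM at 28 months against 21.3 CPM at 18 months. Psmg4 had 4.37, 1.71 and 3.96 CPM at 28 months against 2.35 CPM at 18 months. The unit of its partner Psmg3, joined with Gm26938 and Tmem184a, had 6.24, 4.99 and 5.48 CPM at 28 months against 5.62 CPM at 18 months. Estimates were 0.088 ± 0.29, 0.14 ± 0.27, 0.51 ± 0.65 and -0.012 ± 0.33, and of the 4 only Psmg2 had groups that did not overlap. Subunits restricted to other tissues were near 0. Psma8, of the testis, had 2, 30 and 0 counts at 28 months and 8 counts at 18 months. Psmb11, of the thymus cortex, had 0 counts in all 4 libraries, where each count of 0 allows up to 3 counts.

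Per kilobase of the longest transcript, the levels of the 29 core and regulatory particle genes at 28 months ran from 6.33 CPM per kb for Psma5 to 316 CPM per kb for Psmb6. Psma5 averaged 7.84 CPM at 28 months alone and 38.0 CPM with its near-identical pseudogenes, so its place is uncertain. Bins count some fragments more than once, so these levels also depend on how a gene is cut into bins. Psmb7 lay beside Psmb6, at 314 ± 97.7 and 316 ± 121 CPM per kb at 28 months (SD, n = 3), against 246 and 212 CPM per kb at 18 months, so these neighbours did not differ beyond their spread. The immunoproteasome genes lay far below both, at 6.57 to 15.9 CPM per kb at 28 months.

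Other genes of the pathway, taken from 4 lists, did not pass the edgeR test with all 4 libraries. Over all units tested, 54.4% had an estimate above 0 and 4.90% an unadjusted edgeR p under 0.05. Proteasome partners and ubiquitin shuttles had 12 of 17 estimates above 0 (median 0.15), with 0 at an unadjusted p under 0.05. Pomp, which guides assembly of the core particle, had 202, 110 and 167 CPM in 28-month replicates 1, 2 and 3, against 90.5 CPM at 18 months (0.82 ± 0.44, edgeR adjusted p = 0.859). Regulators of proteasome genes, such as the transcription factor Nfe2l1, had 3 of 6 above 0 (median 0.020), and ubiquitin genes and their activating enzyme had 2 of 5 (median -0.25). Interferon gamma and peptide loading genes had 9 of 11 above 0 (median 0.31), with the 18-month library below all 28-month libraries in 7 of 11, against 25.4% of all units. Tap2, which carries peptides into the endoplasmic reticulum and is encoded beside Psmb8 and Psmb9, had 14.8, 12.6 and 14.5 CPM at 28 months against 8.05 CPM at 18 months. Its 28-month libraries were all higher (0.79 ± 0.29, edgeR adjusted p = 0.859, unadjusted p = 0.0382). B2m, the light chain of MHC class I and named after its values were seen, had 392, 467 and 374 CPM at 28 months against 455 CPM at 18 months, and its groups overlapped.

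Exon usage differed between ages in 6 of the 43 proteasome genes tested, Psma6, Psmc2, Psmb6, Psma2, Psmc3 and Psma7. In all 11000 genes tested, 3.54% were called (edgeR diffSpliceDGE, Simes adjusted p under 0.05). At the level of bins, 9 of 627 were called, against 0.366% of all bins, and 8 of the 9 took a smaller share of their gene at 28 months. Called bins with few counts at 28 months, such as Psma6 bin 4, reached the count filter only through the 18-month library. Their direction was thus partly set by the filter. Bins of 23 proteasome genes could be placed on GRCm38, which placed 5 of the 9 called bins. All 5 lay outside coding transcripts, in pieces annotated only in retained-intron or processed transcripts, and each ended on the base before a coding exon. The number of bins matched the annotation for these genes, which does not prove the placement.

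The junctions at the downstream end of those 5 bins are shown because the intron pieces that end at them held more counts in the 18-month library. Each line gives 60 bases of intron in lower case and the first 20 bases of the following exon in capitals, on the plus strand of GRCm38, and in all 5 the intron ends in AG. The windows are chr12:55407409-55407488 for Psma6, chr11:70526234-70526313 and chr11:70527119-70527198 for Psmb6, chr5:21796473-21796552 for Psmc2 and chr2:91055845-91055924 for Psmc3.
Psma6 bin 4: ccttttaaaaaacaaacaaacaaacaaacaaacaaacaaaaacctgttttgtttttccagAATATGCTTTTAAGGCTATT
Psmb6 bin 5: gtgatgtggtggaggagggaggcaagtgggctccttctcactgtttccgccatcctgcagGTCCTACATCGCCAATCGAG
Psmb6 bin 10: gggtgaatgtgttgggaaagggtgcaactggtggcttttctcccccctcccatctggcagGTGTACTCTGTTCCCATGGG
Psmc2 bin 6: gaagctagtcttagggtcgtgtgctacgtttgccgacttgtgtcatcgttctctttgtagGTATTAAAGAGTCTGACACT
Psmc3 bin 17: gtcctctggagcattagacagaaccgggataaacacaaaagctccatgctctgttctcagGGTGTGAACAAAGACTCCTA

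Psma6 bin 4 (86 bases, chromosome 12, 55407383 to 55407468) had 6, 1 and 1 counts in 28-month replicates 1, 2 and 3, against 53 counts at 18 months. As a share of the gene this was 0.0127 ± 0.0131% at 28 months (SD, n = 3) against 0.382% at 18 months (exact 95% interval 0.286 to 0.499; edgeR diffSpliceDGE adjusted p = 7.6e-06). Psmc2 bin 6, a whole intron of 688 bases (chromosome 5, 21795845 to 21796532), had 3, 0 and 4 counts at 28 months against 54 counts at 18 months. Its share was 0.0143 ± 0.0133% against 0.477% (0.359 to 0.622; edgeR adjusted p = 1.25e-05). In both bins every 28-month library was far below the 18-month library.

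Psmb6 had 2 called bins, in separate introns, and the other side of each intron was counted in a bin of its own. Bin 5 (184 bases, chromosome 11, 70526110 to 70526293) had 1, 15 and 3 counts in 28-month replicates 1, 2 and 3, against 159 counts at 18 months. Bin 4, the 157 bases upstream of it in the same intron, had 1, 15 and 2 counts at 28 months and 1 count at 18 months. At 18 months, then, nearly all counts of this intron were on its downstream side, whereas at 28 months both sides had like counts. Bin 10 (107 bases, 70527072 to 70527178) had 4, 24 and 5 counts at 28 months against 104 counts at 18 months, and bin 9, the 398 bases upstream of it, had 4, 38 and 7 counts against 35 counts. Shares were 0.0426 ± 0.0547% against 1.45% for bin 5 and 0.0721 ± 0.0837% against 0.946% for bin 10 (edgeR adjusted p = 0.000175 and 0.011). Bin 9 had a share of 0.109 ± 0.137% at 28 months against 0.318% at 18 months, where it was highest. It was not called (edgeR adjusted p = 0.960) but passed without 28-month replicate 2 (edgeR adjusted p = 0.00053), so both sides of that intron differed without that library.

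Psmc3 bin 17 (186 bases, chromosome 2, 91055719 to 91055904) had 0, 5 and 1 counts in 28-month replicates 1, 2 and 3, against 53 counts at 18 months, or 0.00706 ± 0.00984% against 0.262% (edgeR adjusted p = 0.00171). Psma7, on the minus strand, had 3 called bins that could not be placed. Its bin 18 had 16, 37 and 16 counts at 28 months against 101 counts at 18 months, bin 19 had 0, 6 and 2 at 28 months against 37 at 18 months, and bin 11 had 1, 6 and 4 at 28 months against 38 at 18 months. In each of these 4 bins the 18-month count was above every 28-month count although the gene total was lowest at 18 months. With limma voom, Psmc3 bin 17 and Psma7 bins 19 and 11 did not pass (adjusted p = 0.0964, 0.102 and 0.0837).

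Psma2 was the 1 gene with a called bin of larger share at 28 months. Its lowest-numbered bin, at the 5′ end, had 876, 778 and 674 counts in 28-month replicates 1, 2 and 3, against 45 counts at 18 months. The share was 7.33 ± 0.35% at 28 months against 0.879% at 18 months (exact 95% interval 0.642 to 1.18; edgeR diffSpliceDGE adjusted p = 0.000506). All 28-month libraries lay within 6.94 to 7.60%. This bin could not be placed on the genome. Bin 2 of Psma2 also took less at 18 months, 5.84% against 10.5 to 11.4% at 28 months. The 3′-most bin of the gene, bin 8, took more, 13.6% against 8.94 to 9.11%, and neither was called. The 18-month share of the 5′-most bin was below all 28-month shares in 63.3% of all genes. The part of coverage in the call of Psma2 was not tested.

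**Figure D3:**
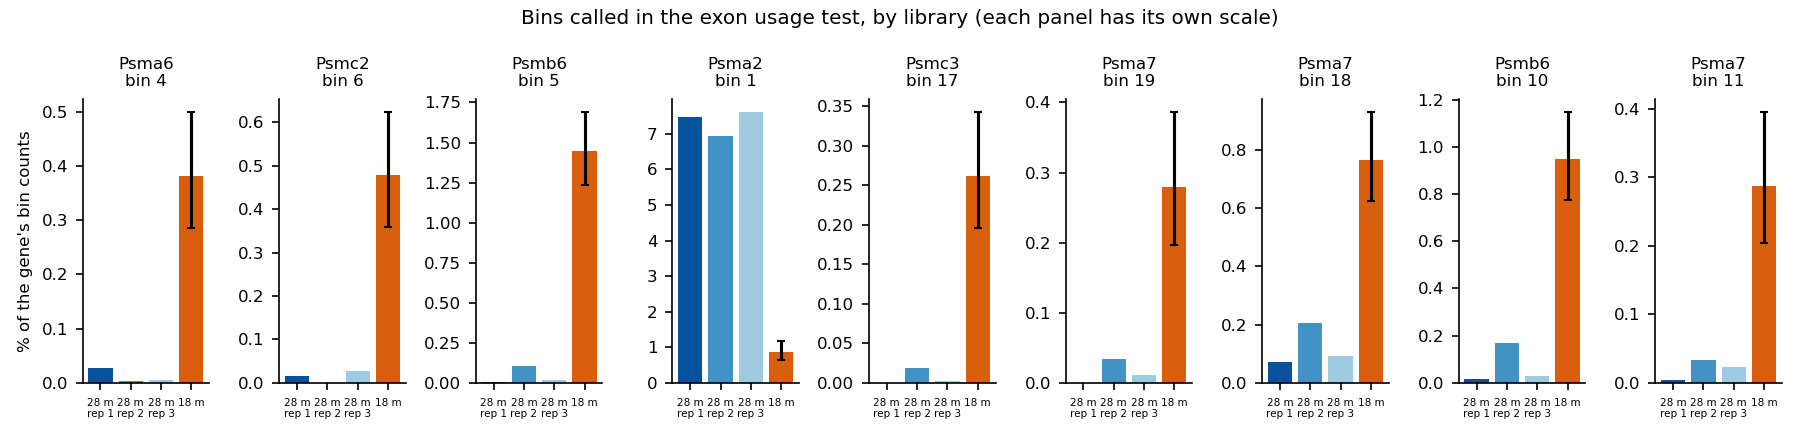
Share of the gene's bin counts (y axis, percent) taken by each of the 9 called bins in the 3 libraries at 28 months and the 1 at 18 months, with the exact 95% interval on the 18-month bar. The 18-month bar is the highest in 8 panels and the lowest in the panel of Psma2 bin 1, where it is 0.879%.

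All bins outside coding transcripts were then summed by their place, first with the called bins, which weigh heavily in the sum, and then without them. In the 23 placed genes, 80 bins lay outside coding transcripts, and together they took 0.259, 0.342 and 0.218% of these genes' counts in 28-month replicates 1, 2 and 3, against 0.673% at 18 months. The 22 bins that end where a coding exon starts had 0.0523, 0.0603 and 0.0396 counts per 100 at 28 months against 0.286 at 18 months. The 27 bins that start where a coding exon ends had 0.0966, 0.147 and 0.0995 per 100 at 28 months against 0.164 at 18 months. A further 16 bins that touch coding exons on both sides had 0.101, 0.108 and 0.0710 per 100 at 28 months against 0.206 at 18 months. The 15 bins that touch no coding exon had 0.00935, 0.0256 and 0.00818 per 100 at 28 months against 0.0175 at 18 months. The 18-month library was thus the highest in the 3 kinds of bin that touch a coding exon, and 28-month replicate 2 in the kind that does not. Without the called bins, the 18 bins left that end where a coding exon starts had 0.0485, 0.0426 and 0.0353 per 100 at 28 months against 0.0905 at 18 months. The 18-month library stayed the highest there, and most of its excess had come from the called bins. Of the 23 bins outside coding transcripts that were tested, the 5 called ones included, 17 had an 18-month share above all 28-month shares and 1 below, against 37.0% above over all tested bins of this kind in placed genes. In both sets, bins with few counts at 28 months passed the count filter only through the 18-month library.

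Exon usage calls depended on single libraries. Without 28-month replicate 3, Psma6 and Psmc2 were called, without replicate 1 these and Psmb6 and Psma2, and without replicate 2 there were 19 of 43, against 30.0% of all genes. The share of all genes called was not computed without replicate 1 or replicate 3. Coverage along transcripts also differed between ages. The 3′-most tested bin took a median of 7.40, 6.69 and 7.08% of a proteasome gene's tested counts in 28-month replicates 1, 2 and 3, against 9.59% at 18 months, and the 18-month share was above all 28-month shares in 38 of 43 genes (85.7% of all genes). The 5′-most bin took 2.07, 2.30 and 1.97% against 1.18%. The 18-month share of that bin lay above all 28-month shares in 15 of 43 genes and within them in 7. It lay below all of them in 21 of 43, against 63.3% of all genes. Read against those backgrounds, the counts were near the background for the 3′ end and under it for the 5′ end, with no test of the difference, and the part of coverage in the exon usage calls was not tested.

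Several proteasome genes share sequence with pseudogenes, to which part of their reads may have been assigned. Of the 49 genes compared, the 45 and the 4 in joined units, 10 had a pseudogene with at least 100 aligned bases at 95% identity or more, and in 7 such a pseudogene had counts. Psma3 had 2995, 3359 and 2239 counts in 28-month replicates 1, 2 and 3, against 1685 counts at 18 months. Gm13835, identical to Psma3 over 665 bases, had 4608, 4960 and 3485 counts at 28 months against 5152 counts at 18 months. The pseudogenes thus held 60.6, 59.6 and 60.9% of the summed counts at 28 months and 75.4% at 18 months. Psma3 alone had a log2 difference of 0.58 ± 0.29 with the groups apart, while the sum with its pseudogenes had -0.10 with the groups overlapping.

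Psma4, whose own estimate was 0.17 ± 0.34, had 151, 98.6 and 124 CPM with its pseudogene Gm6542 in 28-month replicates 1, 2 and 3, against 134 CPM at 18 months. Its groups overlapped with and without the pseudogene, and the mean at 28 months, 125 ± 26.05 CPM (SD, n = 3), lay below 18 months once the pseudogene was added. In the other 5 genes the mean at 28 months stayed on the same side of 18 months. For Psma5 the pseudogenes held 79.3, 80.7 and 78.0% of the summed counts at 28 months and 78.4% at 18 months, so the ages overlapped, and the sum stayed higher at 18 months. For Psma4, Gm6542 held 19.1, 18.8 and 18.4% at 28 months and 32.6% at 18 months, and for Psmd11, Gm14048 held 9.75, 9.67 and 9.66% against 12.7%. Psmc1 and Psmd2 also had the highest pseudogene share at 18 months (5.87% and 5.39%), while for Psmb3 the ages overlapped, at 39.6, 35.0 and 36.0% against 37.0%. These values count a fragment once in a pseudogene of 1 bin and in each bin it spans in the parent gene.

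**Figure D4:**
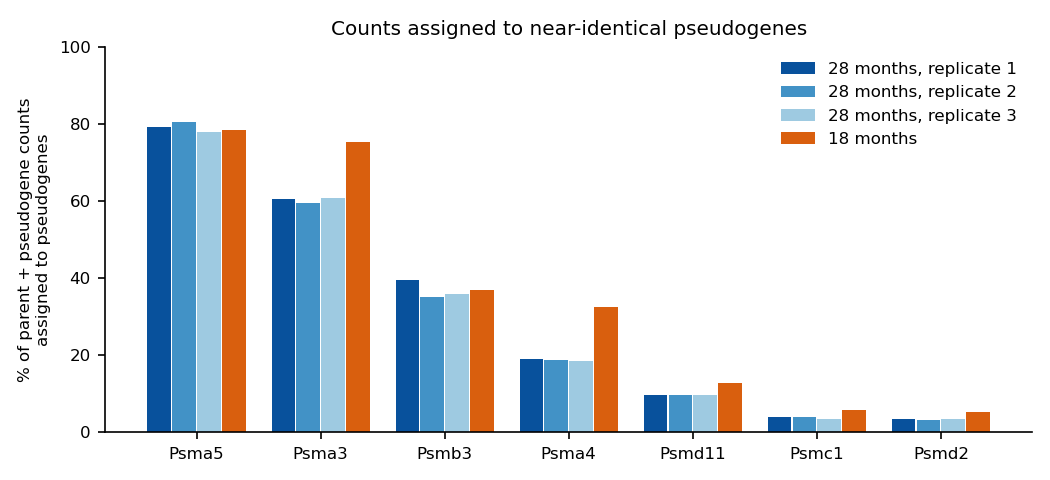
Percent of the summed counts of a proteasome gene and its near-identical pseudogenes (y axis) that were assigned to the pseudogenes, for 7 genes (x axis), with 1 bar per library. For Psma3 and Psma4 the 28-month libraries sit together at 59.6 to 60.9% and 18.4 to 19.1%, below the 18-month library at 75.4% and 32.6%.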

How the data were processed

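RNA from thigh skeletal muscle was sequenced at 28 months (3 libraries) and 18 months (1 library). The deposited values were raw counts per exonic bin, with no normalization by the authors. Per the submitters' processing notes, the tools were bcl2fastq 1.8.3 and TopHat2 2.0.4, and the build was GRCm38. The counter, annotation release and strand setting are not given in the sources used here, so overlapping antisense genes cannot be separated. Bin names look like output of DEXSeq's counting script, where a fragment counts in every bin it spans. Special entries, which name no gene, were 3.36 to 4.56% at 28 months and 5.20% at 18 months, and are not used.

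Bins were summed per gene unit, and 38240 of 39188 gene IDs had a symbol. The gene test was edgeR's quasi-likelihood test with TMM scaling, on units whose counts averaged 10 or more (factors 0.877, 1.28 and 0.897 at 28 months, 0.990 at 18 months). The fit had 2 residual and 3.17 prior degrees of freedom and a common biological coefficient of variation of 0.378. CPM are TMM-scaled. Exon usage was tested with edgeR diffSpliceDGE on bins averaging 10 or more counts, with Simes p-values per gene. Benjamini-Hochberg adjustment ran over all units, genes or bins, and calls were made under 0.05. Bins were placed by GENCODE M21 where its flattened bin number matched the file (23 of 45 genes). Sequence was read from M21 transcripts with an exon that spans the window, and is given in GRCm38 coordinates. Pseudogenes were matched by BLAST 2.17.0.

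The members and lists were chosen with earlier results of these data known. Genes named are the catalytic subunits, activators, chaperones, genes called in either test, the 12 with the smallest gene test p, and up to 4 per pathway list. Others are named by their role or pseudogene match, or as chosen after their values were seen. Alternatives tried were DESeq2 1.42.0 (size factors, Wald test), library sizes that omit mitochondrial genes and the top 20 genes, other count filters, the most abundant bin per gene, counts per kilobase, limma 3.58.1 voom, the gene F-test, end bins left out, and each 28-month library left out. Chosen after seeing the data were the share without the Psmb5 unit and pseudogene counts added to their parents. The scripts were tested on simulated data. Programs were R 4.3.3, edgeR 4.0.16, Python 3.11.15, numpy 2.4.6, pandas 2.3.3, scipy 1.17.1 and matplotlib 3.10.9.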

Additional observations from a re-analysis of the deposited data

How the results depend on the processing

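No paired analysis was possible because 18 months had 1 library, whose label carries no replicate number. Leaving out each 28-month library in turn gave 0 to 18 proteasome genes called by the edgeR gene test, against 1 to 1806 of all 15376 units. The median log2 difference of the core and regulatory particle genes was then 0.25 to 0.59 (0.39 with all libraries). The immunoproteasome share was 1.71 to 2.16 percentage points higher at 28 months. The median was 0.66 with the most abundant bin per gene. The share difference was 1.27 points per kilobase, against 1.90 points. Proteasome genes called for exon usage numbered 6, against 10 with the gene F-test, 11 with limma voom (where 3 of the 9 called bins lost their call), 1 at a mean bin count of at least 50, and 2 to 19 with a 28-month library left out. At a mean bin count of at least 50, only 1 of the 9 called bins, Psma2 bin 1, was still tested. The share of all genes called for exon usage was computed only for the main test and without 28-month replicate 2. With the most abundant bin per gene, estimates changed sign for Psme2 (0.59), Psme3 (-0.16) and Psmg3 (0.31). With a 28-month library left out, Psmg3 ran from -0.10 to 0.082 (positive without replicate 2) and Psme2 from -0.34 to 0.19 (positive without replicate 3), and adding pseudogene counts did so for Psma3 (-0.10). The cause of these changes was not tested. Over the 26 named genes, 243 of 260 values under an alternative kept their direction and side of the threshold. None of these genes was called in the main gene test, and most alternatives called 0 of all units. Under those alternatives only the direction could change. With 1 library at 18 months, no alternative measures the spread at that age.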

Other observations

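The gene total of Psma3 omits the counts of its pseudogenes. These held 75.4% of the summed counts at 18 months and 59.6 to 60.9% at 28 months. In 85.7% of all genes the 18-month share of the 3′-most bin was above all 28-month shares. Within Psma3, bins 23 to 27 took larger shares at 18 months and bins 7, 8, 11 and 12 smaller ones. The part of these in the bin that follows was not tested. The 3′-most bin of Psma3 (bin 28), chosen after its values were seen, had 399, 383 and 318 counts in 28-month replicates 1, 2 and 3, against 556 counts at 18 months. It took 13.0 ± 1.43% of the gene's counts at 28 months (SD, n = 3) and 33.0% at 18 months, with every 28-month library lower, and was not called with all libraries (edgeR diffSpliceDGE adjusted p = 0.33). It passed without 28-month replicate 2 (adjusted p = 4.69e-05).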
